A study of Caenorhabditis elegans with 2 samples.

Results

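The 612 nuclear tRNA genes of Caenorhabditis elegans were examined for PQM-1 signal, each gene with 200 bp added on either side. They were taken by biotype from the Ensembl annotation of WBcel235, the assembly called ce11 in the deposited lists, which holds 634 tRNA genes, and the 22 mitochondrial ones were left out. The rule takes every such gene and uses no measured value, but it was set with earlier results of these data known. The genes were 64 to 122 bp long with a median of 72 bp, and RefSeq names the amino acid (isotype) for 607 of them, in 21 isotypes that include selenocysteine. An anticodon could be assigned from the gene sequence for 598.

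The material was late embryos of hermaphrodite strain OP201, which carries the unc-119(tm4063) III mutation and the wgIs201 transgene, a stably expressed PQM-1 with GFP and FLAG at its C terminus. Embryos were taken 2 h after synchronization by egg bleaching, chromatin was sheared by sonication, and an antibody against GFP pulled down the fusion protein. The 2 samples are biological replicates of this 1 group, each with its own biosample in the labels. Both carry the same mutation and transgene, so every value below describes the tagged protein in whole animals. Control libraries named in the labels were not analysed here, so whether tRNA loci also give signal without the tag was not tested. The authors deposited 1 region list per replicate, 1 for the pooled replicates with 27694 regions, and 1 reproducible list with 669 regions, which are the 669 strongest pooled regions. A locus was counted as having a region when the summit, the highest point of that region, lay inside it. Signal is the authors' value per region. Read depth is unknown.

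Transfer RNA genes are transcribed by RNA polymerase III. Their promoter lies inside the gene: transcription factor TFIIIC recognises an A box and a B box in the transcribed sequence, TFIIIB then settles just upstream of the start, and a run of T ends transcription. Organisms carry many copies of each tRNA gene, often with identical sequence and spread over the genome. PQM-1 is a zinc finger transcription factor best known in C. elegans from work on DAF-16 and the intestine, and for the element TGATAAG found near the genes tied to it.

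The gene sequences below belong to loci among the 12 strongest, apart from R04A9.t1, the glutamine gene with the strongest region. They include 4 sequences with many identical copies, of which some had a reproducible region and others no pooled region. They are given on the strand that matches the RNA, 5′ to 3′, from the RefSeq genome of WBcel235, with the core of the B box, GTTCNANNC, in capitals. F15G9.t1 (chrX:9743589-9743660, plus strand) is an alanine tRNA gene with anticodon TGC, and F15G9.t2 (chrX:9743747-9743818, plus strand) an alanine gene with anticodon AGC. C04A11.t1 (chrX:13665555-13665673, plus strand) is a leucine gene with anticodon CAA and a 35 bp intron. F57F5.t1 (chrV:12002176-12002260, plus strand) is an isoleucine gene with anticodon TAT and an 11 bp intron. F46G11.t1 (chrX:5801472-5801543, plus strand) is a proline gene with anticodon TGG, and F46G11.t2 (chrX:5801211-5801282, minus strand) has the same sequence. C33G3.t2 (chrX:14063946-14064018, minus strand) is a lysine gene with anticodon TTT, identical to T23F1.t1 (chrV:15465086-15465158, plus strand). R04A9.t1 (chrX:410391-410462, plus strand) is a glutamine gene with anticodon TTG.
F15G9.t1: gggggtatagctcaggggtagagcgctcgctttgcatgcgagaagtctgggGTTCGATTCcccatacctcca
F15G9.t2: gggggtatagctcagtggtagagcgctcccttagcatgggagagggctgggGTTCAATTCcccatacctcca
C04A11.t1: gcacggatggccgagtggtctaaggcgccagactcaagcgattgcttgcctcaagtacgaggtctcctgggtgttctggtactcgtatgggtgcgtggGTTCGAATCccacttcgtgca
F57F5.t1: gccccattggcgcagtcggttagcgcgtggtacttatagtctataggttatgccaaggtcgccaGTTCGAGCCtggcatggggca
F46G11.t1: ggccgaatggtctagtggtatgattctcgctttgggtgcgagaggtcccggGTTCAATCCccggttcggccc
C33G3.t2: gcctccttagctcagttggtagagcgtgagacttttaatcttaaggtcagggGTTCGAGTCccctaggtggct
R04A9.t1: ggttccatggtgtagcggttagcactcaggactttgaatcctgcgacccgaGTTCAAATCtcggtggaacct

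PQM-1 regions were frequent at tRNA loci. Of the 612 loci, 87 had a summit of the reproducible list, or 14.2% (exact 95% Clopper-Pearson interval 11.5 to 17.2%). Among all genome windows of 472 bp, the length of a typical extended tRNA gene, 0.311% had one, so that the share at tRNA loci was 45.8 times as high. Windows of the same length centred on protein-coding transcript starts had one in 1.06% of cases (311 of 29314). The 87 loci held 80 distinct summits, because 14 neighbouring loci shared a summit with another locus. These 80 summits made up 12% of the 669 regions. Without the added 200 bp, 7.03% of tRNA genes had a reproducible summit within the gene itself. Intervals cover counting error only, and loci that share a summit or a sequence are not independent.

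Other small RNA genes were measured in the same way. Annotated tRNA pseudogenes, decayed copies of tRNA genes, had a reproducible summit at 2 of 209 loci, or 0.957% (interval 0.116 to 3.41%), against 14.2% of tRNA genes. Among snoRNA genes, whose products guide RNA modification, 46 of 346 had one, or 13.3% (9.9 to 17.3%), a share whose interval overlaps that of the tRNA loci. Among snRNA genes, which encode spliceosomal and related RNAs, the count was 8 of 129, or 6.2% (2.72 to 11.9%). For miRNA genes it was 3 of 261, or 1.15%, and for rRNA genes 0 of 20, which allows up to 16.8% by the same interval. The gap between tRNA genes and pseudogenes was also seen where over 70% of the locus's 31-base words occur once in the genome: 87 of 569 tRNA loci (15.3%) and 2 of 160 pseudogenes (1.25%) had a reproducible summit. The share of unique words matters because reads from repeated sequence cannot be placed with certainty. No difference between classes was tested.

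**Figure D1:**
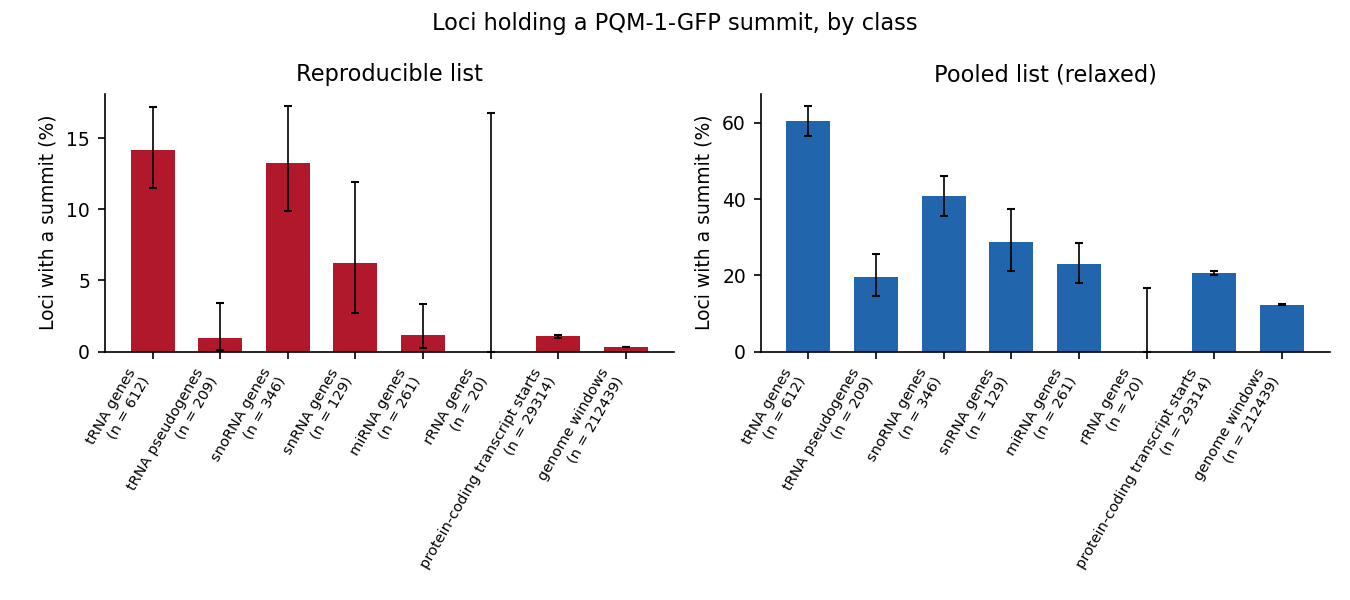
Share of loci with a PQM-1 summit, in percent, for tRNA genes and the comparison classes, in the reproducible list and in the pooled list. Genes were extended by 200 bp per side, and for transcript starts and the genome windows of 472 bp were used. Bars are shares and lines are exact 95% intervals. In the reproducible list, tRNA loci (14.2%) and snoRNA loci (13.3%) stand above the other classes.

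The pooled list is relaxed and covers far more of the genome. In it, 371 tRNA loci had a region, or 60.6% (56.6 to 64.5%), against 12.2% of genome windows and 20.6% of protein-coding transcript starts. The same list gave 19.6% of tRNA pseudogenes (41 of 209), 40.8% of snoRNA, 28.7% of snRNA and 23% of miRNA genes. With pooled regions limited to a q-value of 0.01 or less, 134 tRNA loci (21.9%) had a region, against 0.575% of windows and 1.95% of transcript starts. No region in any of the lists was found at 187 of the 612 loci. Regions at tRNA loci were commonest among strong regions: tRNA loci held 12% of the regions ranked 1 to 100 by signal, 14.5% of the next up to rank 300 and 10.6% of those ranked 301 to 669. Their portion was 7.58% at ranks 670 to 1500, 2.77% at ranks 1501 to 5000 and 0.714% from rank 5001 on.

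The signal of the 87 reproducible loci ran from 82.9 to 234.2 with a median of 113.0, beside a median of 106.1 over the whole reproducible list. The other 284 loci with a pooled region had a median signal of 44.3, and the median over all pooled regions was 27.5. The list's lower limit decides which loci are reproducible. The last 2 loci inside it were F10C1.t2 (leucine, anticodon TAA, signal 84.6) and Y4C6B.t1 (glutamine, anticodon CTG, signal 82.9). The first 2 outside were F55G7.t2 (threonine, anticodon CGT, signal 81.6) and T14F9.t1 (aspartate, anticodon GTC, signal 81.2), so neighbours across this limit hardly differed.

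Both replicates showed the pattern in their own lists. In replicate 1, 349 loci (57%) had a region, against 12.8% of genome windows and 20.1% of transcript starts, and in replicate 2, 334 loci (54.6%) did, against 10.3% and 17.7%. A region in both replicate lists was present at 269 loci, and 198 had one in neither. Taking the 669 strongest regions of each replicate, 93 loci had one in replicate 1, beside 0.311% of windows and 0.989% of starts. In replicate 2, 84 loci had one, beside 0.31% of windows and 1% of starts. Strong regions in both replicates were found at 65 loci, or 10.6% of the 612 (8.29 to 13.3%). Of the 87 reproducible loci, 64 (73.6%) were among the strongest in both replicates, 11 in replicate 1 alone and 12 in replicate 2 alone. Conversely, 25 loci that were not reproducible reached the strongest regions of at least 1 replicate.

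Across the 269 loci with a region in both replicates, the replicates' signals had a Spearman coefficient of 0.75. Across the 86 reproducible loci with both signals it was 0.58. These are descriptions across loci, which share summits and libraries. The summits of the replicates lay a median of 45 bp apart, and 28.5 bp apart at reproducible loci. The aspartate gene C35E7.t1 was the single reproducible locus without a region in replicate 2, with a pooled signal of 128.2 and a replicate 1 signal of 67.6. Its summit lay 236 bp from the gene's 5′ end, beyond the gene.

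**Figure D2:**
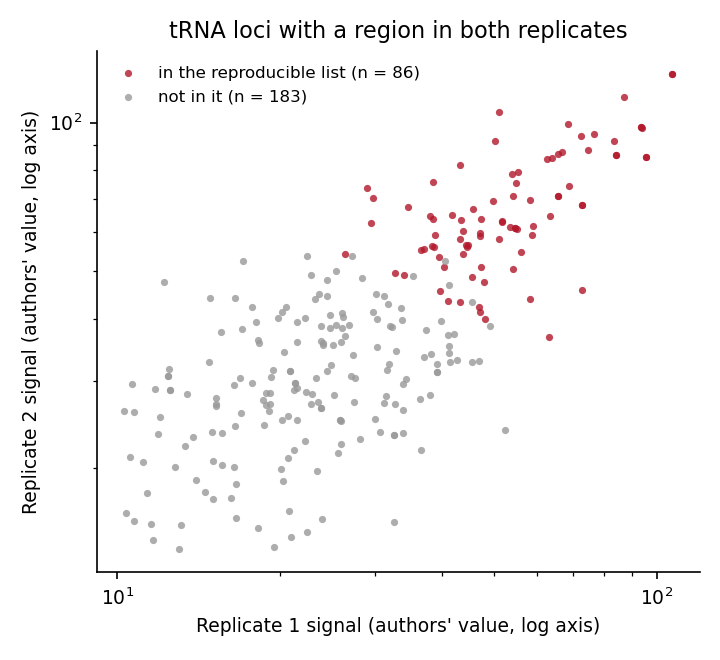
Signal in replicate 2 (vertical, log axis) against replicate 1 (horizontal, log axis), in the authors' units, for tRNA loci with a region in both; each point is 1 locus, with the 86 reproducible ones in red. Signals follow each other between replicates. The reproducible loci lie at the upper end by construction, as their list holds the strongest regions of the pooled replicates.

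The strongest tRNA signal belonged to the neighbouring alanine genes F15G9.t1 and F15G9.t2, which lie 86 bp apart on the X chromosome in an intron of a gene on the same strand. Their shared region had a pooled signal of 234.2, with 106.9 in replicate 1 and 125.2 in replicate 2, and ranked 19 among all pooled regions. The leucine gene C04A11.t1 followed with a pooled signal of 199.7, with 87.1 in replicate 1 and 112.8 in replicate 2. It is a gene with a sequence of its own, without identical copies. The isoleucine gene F57F5.t1 on chromosome V, also without identical copies, had a pooled signal of 189.4, with 94.0 in replicate 1 and 97.5 in replicate 2. It lies in the promoter of the protein-coding gene gcy-33. For all 3 regions the replicates gave signals of similar size.

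Next came the glycine gene M02F4.t1 (anticodon TCC) and the glutamate gene M02F4.t2 (anticodon CTC), which share a region of pooled signal 188.3, with 93.7 in replicate 1 and 97.9 in replicate 2. The proline genes F46G11.t1 and F46G11.t2 share one of 181.9, with 95.5 and 85.3 in replicates 1 and 2. Lysine genes, which are 46 of all 612 loci, supplied 3 of the 12 strongest loci. C33G3.t2 had a pooled signal of 177.1, with 83.2 in replicate 1 and 91.7 in replicate 2. K08E7.t1 (chromosome IV, anticodon CTT) had 174.2, with 76.5 in replicate 1 and 94.8 in replicate 2. T23F1.t1 (chromosome V) had 166.0, with 84.2 in replicate 1 and 85.9 in replicate 2, in a region shared with the proline gene T23F1.t2. The asparagine gene F41D9.t3 had 167.3, with 68.4 in replicate 1 and 99.2 in replicate 2, the widest gap between replicates among these 12 loci. Of the 12, 9 lie on X, where 45.1% of all tRNA loci lie. This count is by locus: the paired genes of F15G9, M02F4 and F46G11, all on X, share a region within each pair. T23F1.t2 on chromosome V has the same signal as T23F1.t1 and was left out of the 12 by the order of names alone. The excess on X was not tested.

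At least 1 reproducible locus was found in 20 of the 21 isotypes and in 41 of the 48 combinations of isotype and anticodon, beside 14.2% of all loci. The isotype without one, selenocysteine, has 1 gene, and the others have 12 to 55. How far gene number alone accounts for these counts was not tested. The strongest phenylalanine gene was T28B4.t1 with a pooled signal of 152.4, and the strongest methionine gene T15B12.t1 with 147.0. For threonine it was W09G10.t3 (143.3), for serine ZC455.t1 (139.5), for tyrosine C02B4.t2 (131.6), for arginine F28H6.t1 (128.0) and for histidine C06G1.t1 (123.9). The summit of 143.3 lies between W09G10.t3 and the lysine gene W09G10.t2, which share the region. Among threonine genes the next was F52C9.t1 (132.5). Valine peaked at R04D3.t2 (108.5), cysteine at C37A2.t1 (108.1), tryptophan at sup-5 (106.7) and glutamine at R04A9.t1 (96.8). The selenocysteine gene K11H12.t1, which is single in the genome, had a weak region of signal 32.8 in the pooled list, of 20.6 in replicate 1 and none in replicate 2.

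Among isotypes with more than 1 gene, the share of reproducible loci ran from 22.2% for aspartate (6 of 27), 21.4% for proline (9 of 42) and 20.5% for leucine (8 of 39) down to 7.32% for glutamate (3 of 41) and 3.23% for valine (1 of 31, interval 0.0816 to 16.7%). The intervals of these isotypes overlap. The order changed with the list: in the pooled list cysteine (84.6%), methionine (80%) and glutamate (73.2%) had the highest shares, while histidine (40%) and tryptophan (33.3%) had the lowest among isotypes with more than 1 gene. By anticodon, the proline genes with CGG had reproducible regions at 3 of 4 loci, namely Y59E1B.t2 (signal 95.6), B0212.t1 (92.4) and F22B7.t5 (87.7). The remaining copy, ZK617.t1, had a signal of 28.3. None of the 19 valine genes with anticodon AAC and none of the 7 with CAC had a reproducible summit. These anticodons were singled out after their values were seen.

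**Figure D3:**
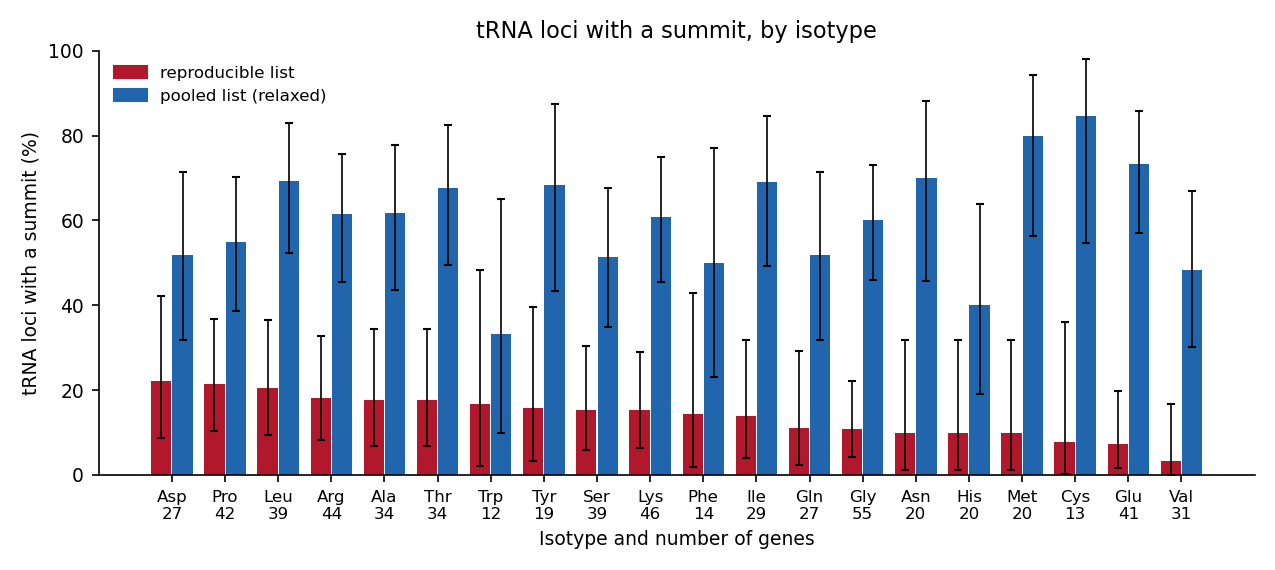
Share of tRNA loci with a PQM-1 summit, in percent, by isotype with the number of genes under each name; red bars are the reproducible list, blue bars the pooled list and lines exact 95% intervals. The intervals of the red bars overlap between isotypes, and the blue bars run from 33.3% for tryptophan to 84.6% for cysteine among isotypes with more than 1 gene.

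Genes of identical sequence differed widely in signal. The 612 genes have 200 distinct sequences, and 57 families of at least 2 identical genes hold 469 of them. Among the 32 families of at least 5 identical genes, 29 had both reproducible members and members that were not, and 31 had members with and members without any pooled region. These families hold 402 genes, of which 58 were reproducible, beside 87 of all 612 loci (14.2%). A pooled region was present at 60.6% of all loci. How many mixed families these shares alone would give was not tested. The strongest region in such a family was 1.11 to 11.3 times as strong as its weakest. Since a summit within 200 bp counts, a copy's region can be centred outside the gene or on a neighbour of another sequence. The ratio of 11.3 belongs to the alanine family of F15G9.t2, whose strongest summit lies in the neighbouring gene F15G9.t1. How the authors placed reads from identical sequence is not given in the sources used here. Over all loci, flanks included, a median of 87.4% of the 31-base words occurred once in the genome.

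The alanine family to which F15G9.t2 belongs has 15 copies. Of these, 12 had a pooled region, with signals of 20.8 to 234.2, and 3 were reproducible: F15G9.t2, F15B9.t1 (116.3) and ZK622.t1 (112.1). The summit of 234.2 lies 91 bp upstream of F15G9.t2, inside F15G9.t1, which has another sequence. The proline family of F46G11.t1 has 24 copies. In it 14 had a pooled region, with signals of 23.5 to 181.9, and 4 were reproducible, F46G11.t1, F46G11.t2, T23F1.t2 and ZK899.t1 (85.4). The summit at T23F1.t2 lies between that gene and the lysine gene T23F1.t1. The remaining 10 copies have the same sequence and had no pooled region. Of them, ZK970.t1 had a region in each replicate's own list, C48C5.t1 in that of replicate 1 and T22F3.t2 in that of replicate 2. Their shares of unique words, flanks included, ran from 61.1 to 86.4%, beside 74.7 to 89.1% in the 4 reproducible copies.

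Of 14 copies of the lysine gene C33G3.t2, 10 had a region. The reproducible copies were C33G3.t2 (177.1) and T23F1.t1 (166.0), and the next was K04C2.t3 at 74.8. Among 15 copies of the glutamine gene R04A9.t1, 8 had a pooled region, and R04A9.t1 (96.8) stood above the next, C10G8.t1, at 52.1. The summit at R04A9.t1 lies 135 bp upstream of the gene. In the 15 copies of a threonine gene with anticodon AGT, 11 had a region, led by ZK563.t1 (113.0) and Y39A1A.t1 (79.1). The largest family, 29 glycine genes with anticodon TCC, had 4 reproducible members and 19 with a pooled region of signal 20.2 to 188.3. The summit of 188.3 lies 89 bp upstream of the glycine gene M02F4.t1 and 28 bp upstream of the glutamate gene M02F4.t2.

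The tryptophan genes give the same picture with named loci. Several carry sup symbols because anticodon mutations in them turn the tRNA into a suppressor of stop codons, a classic tool of C. elegans genetics. All tryptophan genes read here had anticodon CCA, and 10 of the 12 are identical. The gene sup-5 on chromosome III had a pooled signal of 106.7, with 54.1 in replicate 1 and 50.5 in replicate 2. On X, sup-7 had 93.3, with 45.4 in replicate 1 and 48.7 in replicate 2. Both were reproducible. Of the other identical copies, Y95B8A.t1 had 37.9 and sup-28 had 37.0, while the remaining 6, among them sup-21, sup-24, sup-29 and sup-33, had no pooled region. The gene sup-24 had one in each replicate's own list, of 12.5 in replicate 1 and 31.7 in replicate 2. Apart from sup-5 these genes were picked for their symbols after their values were seen.

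Single genes and genes in families were both represented. A reproducible summit was found at 13 of 143 genes without an identical copy (9.09%, 4.93 to 15%), at 20 of 82 with 2 to 5 copies (24.4%), at 17 of 100 with 6 to 10 (17%), at 19 of 188 with 11 to 20 (10.1%) and at 18 of 99 with more than 20 (18.2%). There was no steady rise or fall with copy number. Loci with 70% or fewer unique words gave no reproducible summit (0 of 43, up to 8.22%), and 10 of them (23.3%) had a pooled region.

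Summits gathered near the 5′ end of the gene. At the 87 reproducible loci the summit lay a median of 8 bp downstream of the 5′ end on the gene's own strand, with the middle 50% of summits between 16 bp upstream and 35 bp downstream. It was inside the gene at 43 loci (49.4%), upstream at 35 and downstream at 9. A summit placed evenly over a locus would fall in the gene in 15.3% of cases. Summits within 50 bp of the 5′ end were found at 64 of these loci (73.6%). For the 284 loci with a weaker region the median was 26.5 bp, and 114 summits (40.1%) lay inside the gene. The 68 reproducible loci without a tRNA neighbour within 1000 bp had a median of 9 bp, with 38 summits (55.9%) in the gene and 82.4% within 50 bp. Deposited regions are mostly 430 bp wide, which is much longer than a tRNA gene.

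**Figure D4:**
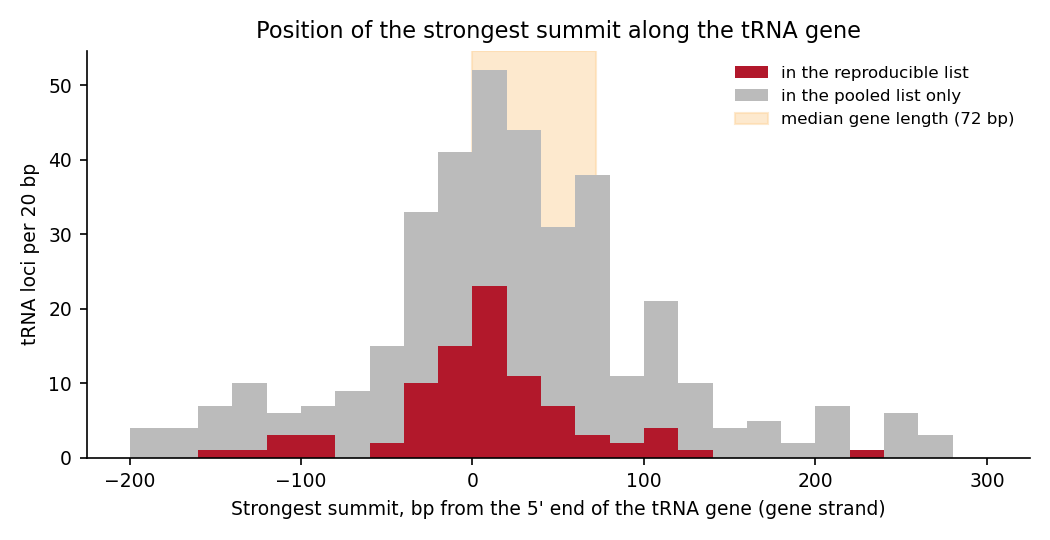
Number of tRNA loci per 20 bp by position of the strongest pooled summit, in bp from the 5′ end of the gene on its own strand; red parts of the stacked bars are reproducible loci, grey parts other loci with a pooled region, and the band marks the median gene length of 72 bp. Reproducible loci crowd around a median of 8 bp, and 9 of 87 lie beyond the 3′ end.

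The share of reproducible loci was lower for clustered genes than for single ones, a difference that was not tested. With clusters defined as genes within 1000 bp of each other, 236 genes formed 100 clusters, 78 of them pairs, and 376 genes were single. Clustered genes had a reproducible summit at 19 of 236 loci, or 8.05% (4.92 to 12.3%), against 68 of 376 single genes, or 18.1% (14.3 to 22.4%). The gap depended on the setting. With a neighbour limit of 500 bp it was 10.0% of clustered (5.93 to 15.5%) against 15.8% of single genes (12.6 to 19.6%), intervals that overlap. In the pooled list the shares were 53% of clustered and 65.4% of single genes. The same order held on X, with 9.63% of clustered and 22% of single genes, and on the autosomes, with 5.94% of clustered and 15.7% of single genes. Clustered genes had a median of 85.9% unique words, against 87.8% for single genes. Among loci over 70% unique, 19 of 212 clustered genes (8.96%, 5.48 to 13.6%) and 68 of 357 single genes (19%, 15.1 to 23.5%) were reproducible. In the pooled list neighbouring summits lay at least 199 bp apart, and 3411 neighbouring pairs lay within 430 bp of each other. The part of this spacing in the result was not tested.

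The share did not change evenly with distance. Genes with a tRNA neighbour at 200 bp or less had a reproducible summit at 15 of 109 loci (13.8%). At 201 to 500 bp it was 2 of 61 (3.28%) and at 501 to 1000 bp 2 of 66 (3.03%). At 1001 to 2000 bp it was 4 of 35 (11.4%) and beyond 2000 bp 64 of 341 (18.8%). For the closest genes 1 summit can serve both: 14 of the 15 reproducible loci at 200 bp or less were 7 pairs that shared a summit, F15G9.t1 and F15G9.t2 among them, so that these loci held 8 distinct summits. With each summit given to its nearest tRNA gene alone, the share was 5.08% of clustered and 18.1% of single genes. The low middle distances together had 4 of 127 (3.15%, 0.865 to 7.87%), a range combined after the values were seen.

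Clusters of at least 3 genes held 80 genes, of which 3 were reproducible: the tyrosine gene R11.t1 (120.7) and the neighbouring genes C16B8.t2 and C16B8.t3 (shared signal 116.7, both with anticodon AGG). The largest clusters both lie on X. The 6 genes F22F1.t2 to F22F1.t7 (chrX:8154445-8156707) had a pooled region at 2 genes, with a highest signal of 63.2. The 6 histidine genes F28H6.t2 to F28H6.t7 (chrX:14135045-14137010) had 1, of signal 26.8, and their share of unique words was as low as 5.2%.

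**Figure D5:**
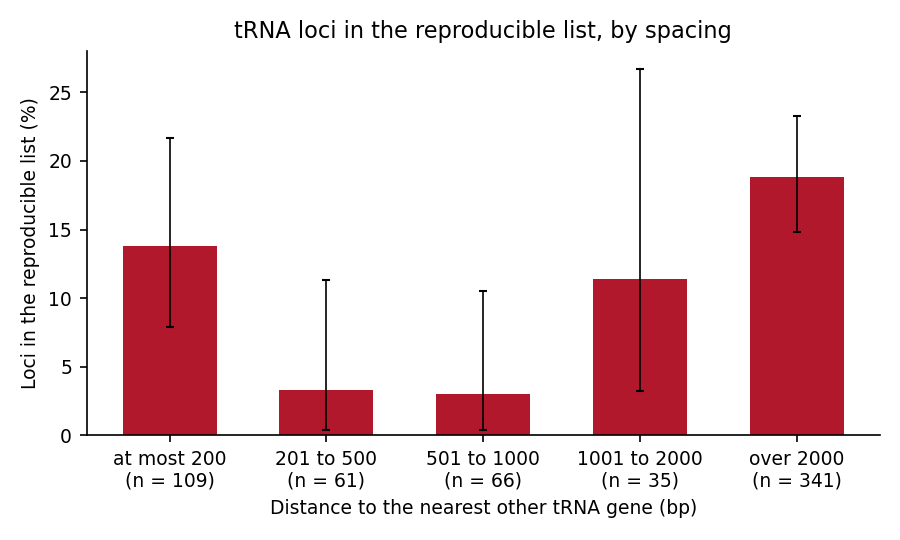
Share of tRNA loci with a reproducible summit, in percent with exact 95% intervals, by distance to the nearest other tRNA gene in bp. The share is 13.8% at 200 bp or less, near 3% between 201 and 1000 bp, and 18.8% beyond 2000 bp.

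The X chromosome carries 276 of the 612 loci (45.1%) and 44 of the 87 reproducible ones (50.6%). This corresponds to 15.9% of X loci (11.8 to 20.8%) and 12.8% of autosomal loci (43 of 336, 9.42 to 16.8%), intervals that overlap. In the pooled list the order was turned round, with 58% of X loci and 62.8% of autosomal loci. In the same reproducible list, 0.36% of genome windows on X and 0.3% on the autosomes had a summit, and 0.656% of protein-coding starts on X against 1.13% on the autosomes. Single autosomes had shares of 10.6% (I), 12.3% (II), 14.1% (III), 14.1% (IV) and 12.8% (V). With genes that have an identical copy left out, the share was 7.02% of 57 X loci and 10.5% of 86 autosomal loci.

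Along X the reproducible loci were uneven. With X divided into 5 equal parts from its left end, 10 of 27, 10 of 30, 6 of 89, 14 of 74 and 4 of 56 loci had a reproducible summit. The first 2 parts together had 20 of 57 (35.1%, 22.9 to 48.9%) and the remaining 3 had 24 of 219 (11%, 7.15 to 15.9%). On the autosomes the first 2 parts had 20 reproducible loci (19.8%) and 9.79% of loci in the other 3 were reproducible. This division was chosen after the data were seen and was not tested. In the left parts of X, 6 of 20 clustered and 14 of 37 single genes were reproducible, and in the other parts the shares were 6.09% of clustered and 16.3% of single genes.

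Most tRNA genes lie between genes or in introns, and the share was similar in each setting. A reproducible summit was found at 47 of 320 loci between genes (14.7%), at 18 of 122 in introns of a gene on the opposite strand (14.8%), at 21 of 160 in introns of a gene on the same strand (13.1%) and at 1 of 10 that overlap an exon. Loci inside a protein-coding promoter, from 1000 bp upstream to 200 bp downstream of a start, had one in 24 of 149 cases (16.1%), and loci outside promoters in 63 of 463 (13.6%).

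Short patterns in the loci were counted. The boxes were sought on the gene's strand and inside the gene, TTTT in the 30 bp after it, and the remaining patterns on both strands of the extended locus. The B box core GTTCNANNC was present in 84 of the 87 reproducible loci (96.6%), in 95.8% of the other tRNA loci, in 78.9% of tRNA pseudogenes and in 1.23% of genome windows of 72 bp. The A box core TNGNNNAG was present in 88.5% of reproducible loci, 83% of other tRNA loci, 90.9% of pseudogenes and 18.1% of genome windows of 72 bp. TTTT within 30 bp after the gene was present in 98.9% of reproducible loci and in 98.9% of the others. It was present after 91.9% of pseudogenes and in 36% of genome windows of 30 bp. Thus the internal promoter letters were nearly as frequent at loci without a reproducible summit as at loci with one.

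TGATAAG was found in 6 of the 87 reproducible loci (6.9%, 2.57 to 14.4%), in 9.52% of other tRNA loci and in 7.96% of genome windows of 472 bp. CACGTG was found in 4.6% of reproducible loci, 5.33% of others and 7.54% of windows. GAGAGAGA was found in 10 reproducible loci (11.5%, 5.65 to 20.1%), in 13 of the 525 other loci (2.48%, 1.32 to 4.2%) and in 3.03% of windows. The loci with GAGAGAGA include C04A11.t1, ZC455.t1 and C42D8.t1. The difference was not tested, and a match is a description of the letters.

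Protein-coding genes that make and charge tRNA were looked up as well, counting a gene as bound when a reproducible summit lay in its promoter, as was the case for 2.75% of all 19973 protein-coding genes. Of 20 aminoacyl-tRNA synthetase genes, whose enzymes attach amino acids to tRNA, 1 was bound: mars-1, the methionine enzyme, with a signal of 117.3 and a summit 304 bp from the start. The lysine enzyme gene kars-1 had a pooled region of signal 82.0 just outside the list. Among 14 genes of RNA polymerase III and its factors and 8 genes of tRNA processing and export, none was bound. In the pooled list, where 41.1% of all protein-coding genes had a promoter summit, 14 synthetase genes (70%), 6 polymerase III genes (42.9%) and 5 processing and export genes (62.5%) had one.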

How the data were processed

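The authors deposited region lists of 2 biological replicates of 1 group, per the labels. They comprise a list of each replicate, a list of both pooled, and a reproducible list by irreproducible discovery rate, per the file names. The 4 lists in ce11 were used here. Each region's deposited signal and −log10 q-value are the authors' own, not scaled between lists. The sources used here do not give the aligner, the peak caller, the threshold or the treatment of multiply mapping reads, and the depth is unknown.

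Loci came from Ensembl release 115, with isotypes and sequences from RefSeq, both for WBcel235; 0 regions lie beyond a chromosome end. The strongest region with its summit in a locus was taken. Anticodons were read in a loop of 7 bases closed by at least 4 of 5 pairs that gave the RefSeq isotype. Shares have exact Clopper-Pearson 95% intervals. With 1 group no test between groups was possible. Counting was tested on simulated data. Python 3.11.15, pandas 2.3.3 and scipy 1.17.1 were used. Alternatives were other reaches, lists, overlaps, subsets of genes and each replicate alone.

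Members and lists were chosen with earlier results of these data known. Named loci were the 12 strongest, the strongest of each isotype, the 2 nearest to the list's limit on either side, up to 4 bound genes per protein-coding list and the 2 largest clusters; further ones are examples chosen after their values were seen.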

Additional observations from a re-analysis of the deposited data

How the results depend on the processing

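Of 85 alternative values of 9 results, 55 stayed within the counting interval, the spread between replicates or 1.5 times the value, and 30 moved further. A change of order between groups was not scored. The share of tRNA loci in the reproducible list was 7.03% with a reach of 0 bp, 21.9% with pooled regions of q-value 0.01 or less, 8.5% with the stronger 50% of the regions and 9.09% without genes that have an identical copy. In the same 4 settings X loci gave 8.33%, 23.6%, 11.6% and 7.02%, and single genes 10.1%, 26.3%, 9.31% and 10.0%. Autosomal loci gave 5.95%, 20.5% and 5.95% in the first 3, and clustered genes 2.12%, 14.8%, 7.2% and 6.98% in the 4. Clustered genes were thus below single genes in every one of these settings, but by little with the stronger 50% of the regions and without identical copies, where the intervals overlap, as they do with replicate 1 alone. Loci with any pooled region made up 26.6%, 54.4% and 69.6% with a reach of 0, 100 and 500 bp, and 67.6% when any overlap counted. Loci strong in both replicates made up 2.94% with a reach of 0 bp and 14.2% with q-values of 0.01 or less. A shorter reach or a shorter list leaves fewer loci by construction; for the change without identical copies the cause was not tested. The median summit position was 18 bp over all loci with a region, 8 bp in the reproducible list, 23 bp with a reach of 100 bp and 23 bp for single genes. With either replicate alone, the share of loci was 13.7 to 15.2%, of X loci 16.7 to 17.8%, of autosomal loci 11.3 to 13.1%, of clustered genes 8.47 to 11.9%, of single genes 17 to 17.3% and of loci with any region 54.6 to 57.0%, the position 11 to 18 bp, and 2 listed protein-coding genes were bound in each. The alternatives by unique words were chosen after seeing the data, as were those for clustered and single genes other than the neighbour limits and each replicate alone. Unknown depth and read placement limit what identical copies can show. No paired analysis was possible because there is 1 group.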

Other observations

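Neighbouring tRNA genes in the 100 clusters were also sorted by orientation. Of 51 pairs whose 5′ ends face each other, 3 had a reproducible summit at either gene (5.88%). Of 28 pairs whose 3′ ends face each other, 3 had one (10.7%), and of 57 pairs on the same strand, 7 had one (12.3%). Counted by locus, 8.05% of all clustered genes had one. In the same order, the median gaps were 161, 225.5 and 453 bp, and 3, 1 and 3 pairs shared their summit. No difference between orientations was tested. At 1 reproducible tRNA locus the summit was also within reach of a snoRNA or snRNA gene.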
